A study of Saccharomyces cerevisiae with 8 samples.

Results

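The mRNAs described are those of 57 budding yeast genes whose proteins build the large (60S) ribosomal subunit. The genes were taken by systematic name from a fixed list of assembly, helicase, GTPase and export factors of the large-subunit precursor. The rule uses no measured value, but the list was chosen with earlier results of these data known. They make up 57 of the 7126 features in the count table, and all 57 were among the 6115 features with enough counts to be tested. The libraries came from Saccharomyces cerevisiae grown in YPD, a rich medium, and formed 4 groups of 2 libraries, 8 in all: ubc9-1 with rapamycin, ubc9-1 untreated, WT with rapamycin and WT untreated. Rapamycin, an inhibitor of the growth-controlling kinase complex TORC1, was given at 100 nM for 30 min. UBC9 encodes the enzyme that attaches the small protein SUMO to its targets, ubc9-1 is a mutant allele of it, and the labels list the WT strain as UBC9. All groups share the medium, and nothing in the labels says whether the 2 libraries of a group came from separate cultures, so the p-values measure only the spread between these libraries, which may be technical. RNA of 50 to 100 nt was selected before sequencing. A count for one of these mRNAs is therefore a count of short fragments, and whether a change reflects whole mRNA, its breakdown or the RNA content of the cells cannot be told apart here.

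The large subunit is assembled on a long precursor RNA in the nucleolus, matured in the nucleoplasm and exported to the cytoplasm. Early factors bind and fold the precursor, RNA helicases and GTPases drive its rearrangements, AAA ATPases strip factors off, and placeholder and export factors accompany the particle out of the nucleus. In yeast the genes for these factors are co-regulated with growth through TORC1, and many carry a pair of promoter elements named PAC and RRPE. The PAC core reads GATGAG and the RRPE core AAAATTTT.

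The upstream sequences of BRX1 (YOL077C), NIP7 (YPL211W), NOP8 (YOL144W), RLP24 (YLR009W), SYO1 (YDL063C) and TIF6 (YPR016C), which recur in every comparison below, are printed to show these elements in place. The stretch shown is 200 bases long and ends 50 bases before the start codon, in the R64 assembly from RefSeq, and is read 5′ to 3′ on the strand of the gene. Capitals mark GATGAG or its reverse complement and AAAATTTT, which is its own reverse complement. The stretches lie at chrXV:186774-186973 on the minus strand for BRX1, chrXVI:153245-153444 on the plus strand for NIP7, chrXV:52848-53047 on the plus strand for NOP8, chrXII:166287-166486 on the plus strand for RLP24, chrIV:340185-340384 on the minus strand for SYO1, and chrXVI:593120-593319 on the minus strand for TIF6.
BRX1: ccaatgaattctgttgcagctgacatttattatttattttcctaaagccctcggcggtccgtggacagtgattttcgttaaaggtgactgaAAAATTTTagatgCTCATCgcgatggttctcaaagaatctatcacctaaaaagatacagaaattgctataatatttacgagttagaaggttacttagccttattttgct
NIP7: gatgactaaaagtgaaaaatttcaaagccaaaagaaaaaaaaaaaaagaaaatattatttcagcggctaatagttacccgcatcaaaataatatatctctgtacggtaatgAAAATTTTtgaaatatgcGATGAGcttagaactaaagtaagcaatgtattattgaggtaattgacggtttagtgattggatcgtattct
NOP8: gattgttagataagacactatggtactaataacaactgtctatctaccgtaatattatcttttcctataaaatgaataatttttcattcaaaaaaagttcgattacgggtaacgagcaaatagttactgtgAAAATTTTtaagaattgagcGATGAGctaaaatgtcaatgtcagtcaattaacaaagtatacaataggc
RLP24: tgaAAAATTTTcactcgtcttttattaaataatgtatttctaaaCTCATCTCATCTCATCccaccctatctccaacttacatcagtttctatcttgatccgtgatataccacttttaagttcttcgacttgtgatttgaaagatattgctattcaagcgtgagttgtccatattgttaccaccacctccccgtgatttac
SYO1: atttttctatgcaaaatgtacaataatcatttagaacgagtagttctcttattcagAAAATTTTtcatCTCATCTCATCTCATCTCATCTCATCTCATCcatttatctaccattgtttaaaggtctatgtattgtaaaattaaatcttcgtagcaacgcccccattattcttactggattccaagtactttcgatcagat
TIF6: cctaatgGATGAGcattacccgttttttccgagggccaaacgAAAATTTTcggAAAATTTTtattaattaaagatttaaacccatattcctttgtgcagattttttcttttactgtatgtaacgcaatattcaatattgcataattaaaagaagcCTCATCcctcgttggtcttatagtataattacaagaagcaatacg
Each of the 6 stretches holds both elements. BRX1, NIP7 and NOP8 carry 1 GATGAG match each, TIF6 carries 2, RLP24 carries 3 and SYO1 carries 6, in a run of overlapping copies. TIF6 has 2 AAAATTTT matches in the stretch shown and the other genes have 1 each.

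Across the full window of 250 bases before and 50 bases from the start codon, GATGAG was found on either strand in 53 of the 57 promoters, which is 93%, against 20.4% of 6001 promoters of the same length in the genome. AAAATTTT was found in 46, which is 80.7%, against 9.03% of all promoters. Both were found in 42 promoters (73.7%, against 4.38% of all) and at least 1 of them in all 57 (against 25% of all). The longer form GCGATGAG, which contains GATGAG, was in 35 promoters (61.4%, against 3.93% of all). The GATGAG matches numbered 93, lay at a median position of -120 from the start codon, and 80 of them fell between -200 and -50. The 51 AAAATTTT matches had a median position of -141, with 46 between -200 and -50. Within the window, the 11 genes with GATGAG and no AAAATTTT were DBP6, DBP7, MAK5, NOP4, NOP12, NOP16, RRP1, RSA3, SSF1, URB1 and URB2. The 4 with AAAATTTT and no GATGAG were IPI1, NSA1, RIX1 and SPB1. IPI3 was counted as holding both, although its only GATGAG lay at position 4, in the coding sequence. GATGAG matches at positions 27 in RLP24, 37 in NOP12 and 43 in DBP3 were also in coding sequence. That at -1 in DBP7 overlapped the start codon. These last genes had a further GATGAG upstream. A match is a description of the letters in the window and no evidence of binding.

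**Figure D1:**
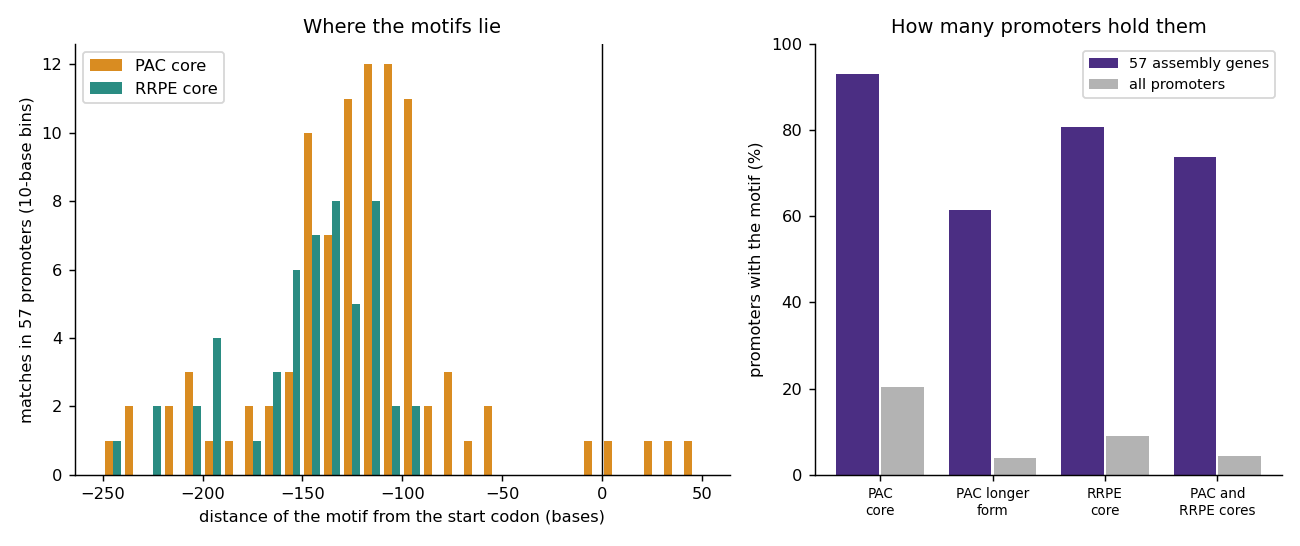
Left, positions of the PAC core (orange) and the RRPE core (green) in the 57 promoters, as matches per bin of bases against the distance from the start codon; right, the percent of promoters with each motif in the 57 genes (purple) and in all 6001 promoters (grey). Matches gather around positions -120 and -141, and the purple bars reach 93% for the PAC core and 80.7% for the RRPE core, above grey bars of 20.4% and 9.03%.

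The libraries held 14304014 to 21061460 assigned counts each. The 57 genes held few of them: 0.0351% and 0.0327% in the ubc9-1 libraries with rapamycin, 0.0529% and 0.112% in the untreated ubc9-1 libraries, 0.0262% and 0.0321% in the WT libraries with rapamycin, and 0.0849% and 0.16% in the untreated WT libraries. Levels are given below as CPM, the count over the library total after trimmed mean of M values (TMM) scaling. The summed level of the 57 genes was 381 and 317 CPM in ubc9-1 with rapamycin, 735 and 879 CPM in untreated ubc9-1, 236 and 235 CPM in WT with rapamycin, and 1221 and 1468 CPM in untreated WT. The 4 groups did not overlap in this sum, whereas the untreated strains overlapped in the share of assigned counts above. Of the counts of open reading frames alone, the 57 genes held 0.0967% and 0.0744% in ubc9-1 with rapamycin, 0.175% and 0.25% in untreated ubc9-1, 0.0769% and 0.074% in WT with rapamycin, and 0.456% and 0.634% in untreated WT, and on that scale the treated strains overlapped. The TMM factors of the untreated pairs were far apart, at 0.7195 and 1.274 in ubc9-1 and 0.6948 and 1.088 in WT, and the part of this in the results was not tested beyond the alternative scalings. UBC9 itself had 221 and 298 counts in ubc9-1 with rapamycin, 307 and 554 in untreated ubc9-1, 79 and 114 in WT with rapamycin and 2 and 74 in untreated WT. The strains also differed in auxotrophic marker genes: TRP1 had 22 to 92 counts in the ubc9-1 libraries and 0 in all WT libraries, so effects of ubc9-1 and of other differences between the strains cannot be told apart.

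In WT cells the fragments of nearly all of these genes were fewer with rapamycin. The edgeR quasi-likelihood test called 53 of the 57 lower and none higher at an adjusted p under 0.05, against 11.6% of all features tested called lower and 8.77% called higher. None was higher at an unadjusted p under 0.05 or by DESeq2, which called 53 lower against 13.9% of all features, and 56 were lower at an unadjusted p under 0.05, against 18.2% of all features. The median log2 fold change was -2.65 for the 57 genes and 0.04 for all features, and a median of 15.9% of the untreated level was left. In 56 of the 57 both rapamycin libraries were below both untreated libraries, against 28% of all features. The largest change was that of BRX1, at -4.52, and the smallest that of SSF2, at -1.14; 49 genes had log2 fold changes below -2 and 19 below -3. Without any 1 library, 44 of the 53 calls were kept. Of all features called in WT, 536 were higher and 712 lower, a split that became 583 and 265 when library totals were used without further scaling and 349 and 374 with factors from snoRNAs, while every member called was lower under each.

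**Figure D2:**
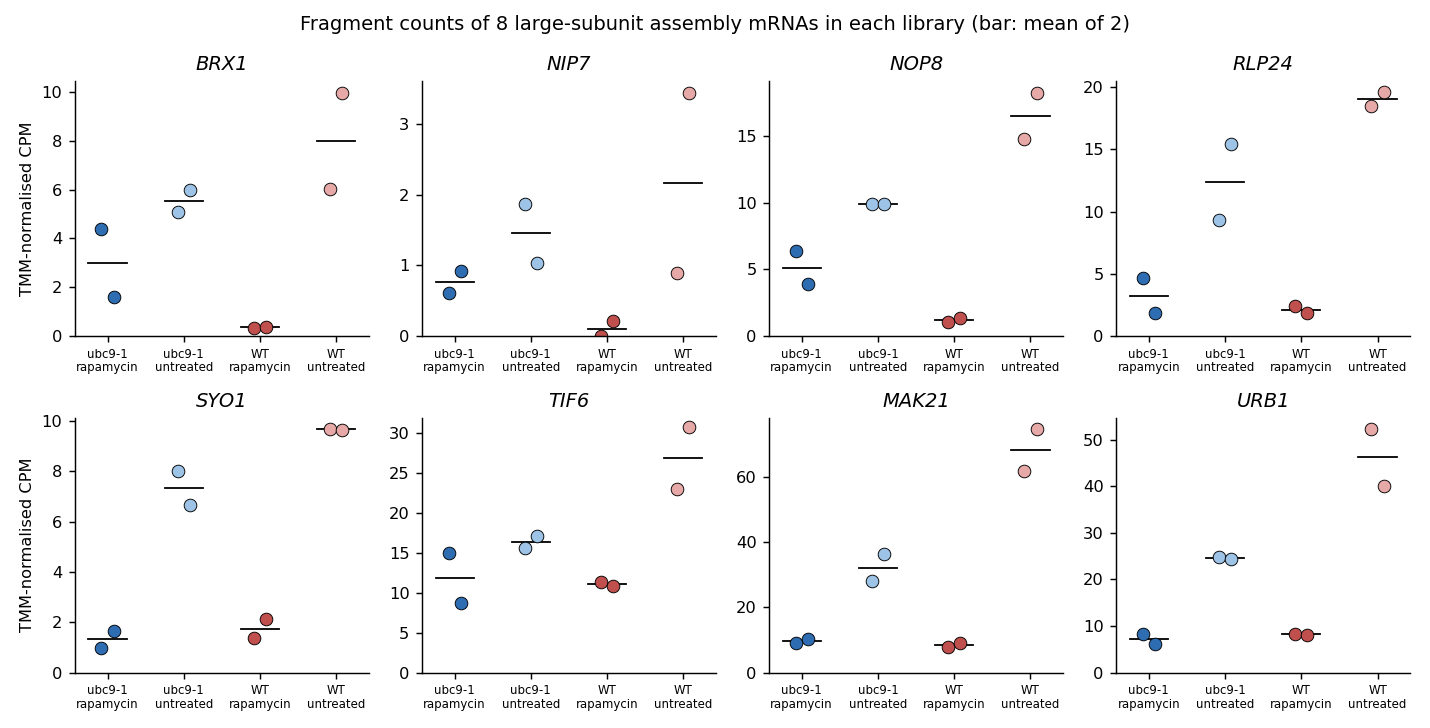
TMM-scaled CPM of BRX1, NIP7, NOP8, RLP24, SYO1, TIF6, MAK21 and URB1 in each library (points), with the mean of the 2 libraries of a group as a bar, for ubc9-1 and WT with and without rapamycin. In WT every treated point is below every untreated one, while BRX1 and NOP8 in treated ubc9-1 stay above their treated WT points.

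Among the early particle proteins, all 18 were lower in WT and 14 were called lower, with a median log2 fold change of -2.46. BRX1, which binds the precursor together with EBP2 (YKL172W), had 0.344 and 0.347 CPM in the WT libraries with rapamycin, against 6.05 and 9.98 CPM in the untreated ones, a log2 fold change of -4.52 (SE 0.57, adjusted p = 0.000141). NOP8, a partner of NIP7 and of the URB1 (YKL014C) complex in early particles, had 1.03 and 1.35 CPM with rapamycin, against 14.8 and 18.3 CPM untreated, a log2 fold change of -3.78 (SE 0.382, adjusted p = 3.42e-05). The treated libraries lay far below the untreated ones for both genes, with little spread between the treated ones. NIP7 was scarcely counted: 0 and 0.208 CPM with rapamycin, against 0.89 and 3.44 CPM untreated, with a mean of 19 counts over the 8 libraries. Its log2 fold change of -4.23 has an SE of 1.15 (adjusted p = 0.0189), and a count of 0 allows up to 3 counts in that library. Its value moved to -2.93 without untreated WT library 2 and to -3.35 without WT rapamycin library 1, where the call was lost (adjusted p = 0.163 and 0.106), and to -8.23 without WT rapamycin library 2, where only the library at 0 remained.

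URB1, the scaffold of the complex that binds early precursors with URB2 (YJR041C), NOP8, RSA3 (YLR221C) and DBP6 (YNR038W), had 8.38 and 8.16 CPM with rapamycin, against 52.4 and 40 CPM untreated (log2 fold change -2.48, adjusted p = 9.57e-05). PUF6 (YDR496C), an RNA-binding protein of the PUF family, had 3.96 and 4.13 CPM with rapamycin, against 16.3 and 37.2 CPM untreated (log2 fold change -2.73, adjusted p = 0.000407). NSA1 (YGL111W), which joins the particle with MAK16 (YAL025C), RPF1 (YHR088W) and RRP1 (YDR087C), had 4.08 and 2.74 CPM with rapamycin, against 12.3 and 16 CPM untreated (log2 fold change -2.05, adjusted p = 0.00118). The pairs of libraries were apart for each of the 3, most widely for URB1. The 4 members not called in WT were LOC1 (YFR001W), RSA3, RPF1 and NOP16 (YER002W), all of this class, with log2 fold changes of -1.48, -2.02, -1.22 and -1.47 and adjusted p of 0.272, 0.103, 0.122 and 0.0698. LOC1, RSA3 and RPF1 were thinly counted, with means of 22, 26.4 and 43.8 counts over the 8 libraries, NOP16 less so, with 70.4. LOC1 was the only member whose treated and untreated WT libraries overlapped, at 0.645 and 0.208 CPM with rapamycin and 0.356 and 1.94 CPM untreated.

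SSF1 (YHR066W) and SSF2 (YDR312W), also early factors, are paralogs with coding sequences of 1362 bases each. These are 92.1% identical and share a stretch of 92 identical bases. Of 1313 windows of 50 bases, 53 were identical throughout. Since a read that maps to both was counted in both, their separate values are uncertain, and the share of such reads was not measured. SSF2 had 4.13 and 4 CPM with rapamycin, against 7.3 and 10.6 CPM untreated, a log2 fold change of -1.14 (SE 0.356, adjusted p = 0.036). The SSF2 call was lost without untreated WT library 2 (adjusted p = 0.175), WT rapamycin library 1 (0.146) or WT rapamycin library 2 (0.178). SSF1 had 4.13 and 1.98 CPM with rapamycin, against 22.8 and 23.4 CPM untreated (log2 fold change -2.93, adjusted p = 0.000206). The count of SSF1 over that of SSF2 was 1 and 0.496 in WT with rapamycin, against 3.12 and 2.21 in untreated WT. The same ratio was 0.523 and 0.823 in ubc9-1 with rapamycin, against 0.947 and 1.4 in untreated ubc9-1. SSF1 was thus counted more than SSF2 in both untreated WT libraries and in 1 of the untreated ubc9-1 libraries.

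All 7 PeBoW and precursor RNA processing factors fell in WT, with a median of -2.61. The PeBoW complex holds NOP7 (YGR103W), ERB1 (YMR049C) and YTM1 (YOR272W) and is needed to process the spacers of the precursor RNA. NOP7 had 5.76 and 3.4 CPM with rapamycin, against 21.2 and 34.4 CPM untreated (log2 fold change -2.61, SE 0.357, adjusted p = 0.000253). CIC1 (YHR052W), which binds an internal spacer of that RNA, had 1.2 and 1.39 CPM with rapamycin, against 10.9 and 15.9 CPM untreated (log2 fold change -3.36, SE 0.539, adjusted p = 0.000735). The other 5 members of the class had log2 fold changes of -2.32 to -3.22, and RRP1 lost its call without untreated WT library 2 (adjusted p = 0.0919) or WT rapamycin library 2 (0.1).

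The 4 members grouped as Noc proteins, the nucleolar complex proteins with SDA1 (YGR245C), all fell in WT, with a median of -2.72. MAK21 (YDR060W), also known as NOC1, is the partner of NOC2 (YOR206W) in early particles. It had 7.83 and 9.07 CPM with rapamycin, against 61.9 and 74.9 CPM untreated (log2 fold change -3.02, SE 0.3, adjusted p = 3.42e-05). NOC3 (YLR002C) had 1.85 and 3.06 CPM with rapamycin, against 19.8 and 21.9 CPM untreated (log2 fold change -3.08, adjusted p = 5.81e-05). SDA1, needed for nuclear maturation and export, had 6.28 and 3.75 CPM with rapamycin, against 29.9 and 18.1 CPM untreated (log2 fold change -2.26, adjusted p = 0.00104). The treated libraries were below the untreated ones for all 4 genes, NOC2 included.

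All 9 DEAD-box RNA helicases fell in WT, with a median of -2.65 and a range of -3.42 to -1.40. DRS1 (YLL008W) was at the low end, with 2.36 and 3.16 CPM with rapamycin, against 22.7 and 36.7 CPM untreated (adjusted p = 3.89e-05). DBP6, a member of the URB1 complex, was at the other end, with 6.54 and 6.5 CPM with rapamycin, against 16.1 and 18.2 CPM untreated (log2 fold change -1.40, adjusted p = 0.00751). SPB4 (YFL002C) had 7.4 and 9.03 CPM with rapamycin, against 20.3 and 28.8 CPM untreated (log2 fold change -1.58, adjusted p = 0.0115). The helicases thus kept different shares of their untreated level, and the libraries did not overlap for any of them. DBP10 (YDL031W) and MAK5 (YBR142W) had log2 fold changes of -1.88 and -2.65 (adjusted p = 0.000848 and 0.000238). HAS1 (YMR290C) fell by 2.88 (adjusted p = 0.000202), with the reservation that it overlaps another annotated feature. The DBP6 call was lost without WT rapamycin library 1 (adjusted p = 0.0533) or 2 (0.0669), and the SPB4 call without either of these (0.0922 and 0.0593) or untreated WT library 2 (0.0663).

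The methyltransferases NOP2 (YNL061W), SPB1 (YCL054W) and RRP8 (YDR083W), which modify the RNA of the large subunit, all fell in WT, with log2 fold changes of -2.74, -2.69 and -3.46. SPB1 had 9.76 and 10.7 CPM with rapamycin, against 52.1 and 80.1 CPM untreated (adjusted p = 0.000111). RRP8 was thinly counted, at a mean of 46.5 counts, and its call was lost without untreated WT library 2 (adjusted p = 0.0967) or WT rapamycin library 1 (0.124). The GTPases NOG1 (YPL093W) and NUG1 (YER006W) and the AAA ATPase MDN1 (YLR106C), which strips factors from the particle, had log2 fold changes of -2.44, -2.79 and -2.31 (adjusted p = 0.000407, 3.94e-05 and 0.000656). MDN1 is the longest of the genes, at 14733 bases, and had the most counts of the 57, with a mean of 1421.

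The RIX1 (YHR197W) complex and RSA4 (YCR072C), on which MDN1 acts, had the lowest median of the classes, at -3.53, and all 4 fell in WT. IPI3 (YNL182C) had 1.07 and 0.834 CPM with rapamycin, against 8.28 and 18.7 CPM untreated (log2 fold change -3.83, SE 0.476, adjusted p = 0.000125). RIX1 had 1.12 and 0.695 CPM with rapamycin, against 10.1 and 14.5 CPM untreated (log2 fold change -3.77, SE 0.482, adjusted p = 0.00016). Both were close to 1 CPM with rapamycin and at or above 8 CPM without it. IPI1 (YHR085W) was thinly counted, at a mean of 33 counts, and its call was lost without untreated WT library 2 (adjusted p = 0.0591), WT rapamycin library 1 (0.0539) or WT rapamycin library 2 (0.103).

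The 4 factors of the 5S particle and chaperones of ribosomal proteins fell in WT, with a median of -2.89. RRS1 (YOR294W) and RPF2 (YKR081C) bring the 5S RNA particle into the precursor. RRS1 had 1.55 and 0.903 CPM with rapamycin, against 13.1 and 13.5 CPM untreated (log2 fold change -3.45, adjusted p = 4.5e-05). RPF2 had 3.27 and 0.869 CPM with rapamycin, against 20.5 and 20.3 CPM untreated (log2 fold change -3.32, adjusted p = 0.000553). SYO1, which carries Rpl5 and Rpl11 together into the nucleus, had 1.38 and 2.12 CPM with rapamycin, against 9.7 and 9.65 CPM untreated (log2 fold change -2.46, SE 0.401, adjusted p = 0.000847). RRB1 (YMR131C), the chaperone of Rpl3, fell by 2.11 on the log2 scale (adjusted p = 0.000559). The treated libraries of these 4 genes were all below the untreated ones.

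Of the placeholders and the export or release factors, all 5 fell in WT, with a median of -2.44. RLP24, which holds the place of Rpl24 until the particle reaches the cytoplasm, had 2.41 and 1.81 CPM with rapamycin, against 18.5 and 19.6 CPM untreated (log2 fold change -3.18, SE 0.435, adjusted p = 0.000251). TIF6, which keeps the subunits from joining too early, had 11.3 and 10.9 CPM with rapamycin, against 23 and 30.8 CPM untreated (log2 fold change -1.28, SE 0.317, adjusted p = 0.0114). NMD3 (YHR170W), the export adapter, had 8.17 and 7.99 CPM with rapamycin, against 26 and 42 CPM untreated (log2 fold change -2.08, adjusted p = 0.000981). TIF6 thus kept a larger part of its level than RLP24, with no overlap between treated and untreated libraries in either. The TIF6 call was lost without untreated WT library 2 (adjusted p = 0.0613), WT rapamycin library 1 (0.0726) or WT rapamycin library 2 (0.0938).

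In untreated WT the level per kilobase of gene ranged from 1.87 CPM per kb for LOC1 to 36.5 CPM per kb for NOG1, with a median of 11.4 for the 57 genes and 4.54 for all features with systematic open reading frame names. TIF6 at 36.4, EBP2 at 32.4 and RLP24 at 31.8 CPM per kb were close to the top. The WT log2 fold change showed little relation across the 57 genes to gene length (Pearson r = 0.0595) or to this level (Pearson r = -0.0954). Both are descriptions over genes that share libraries, and genes are not independent replicates.

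**Figure D3:**
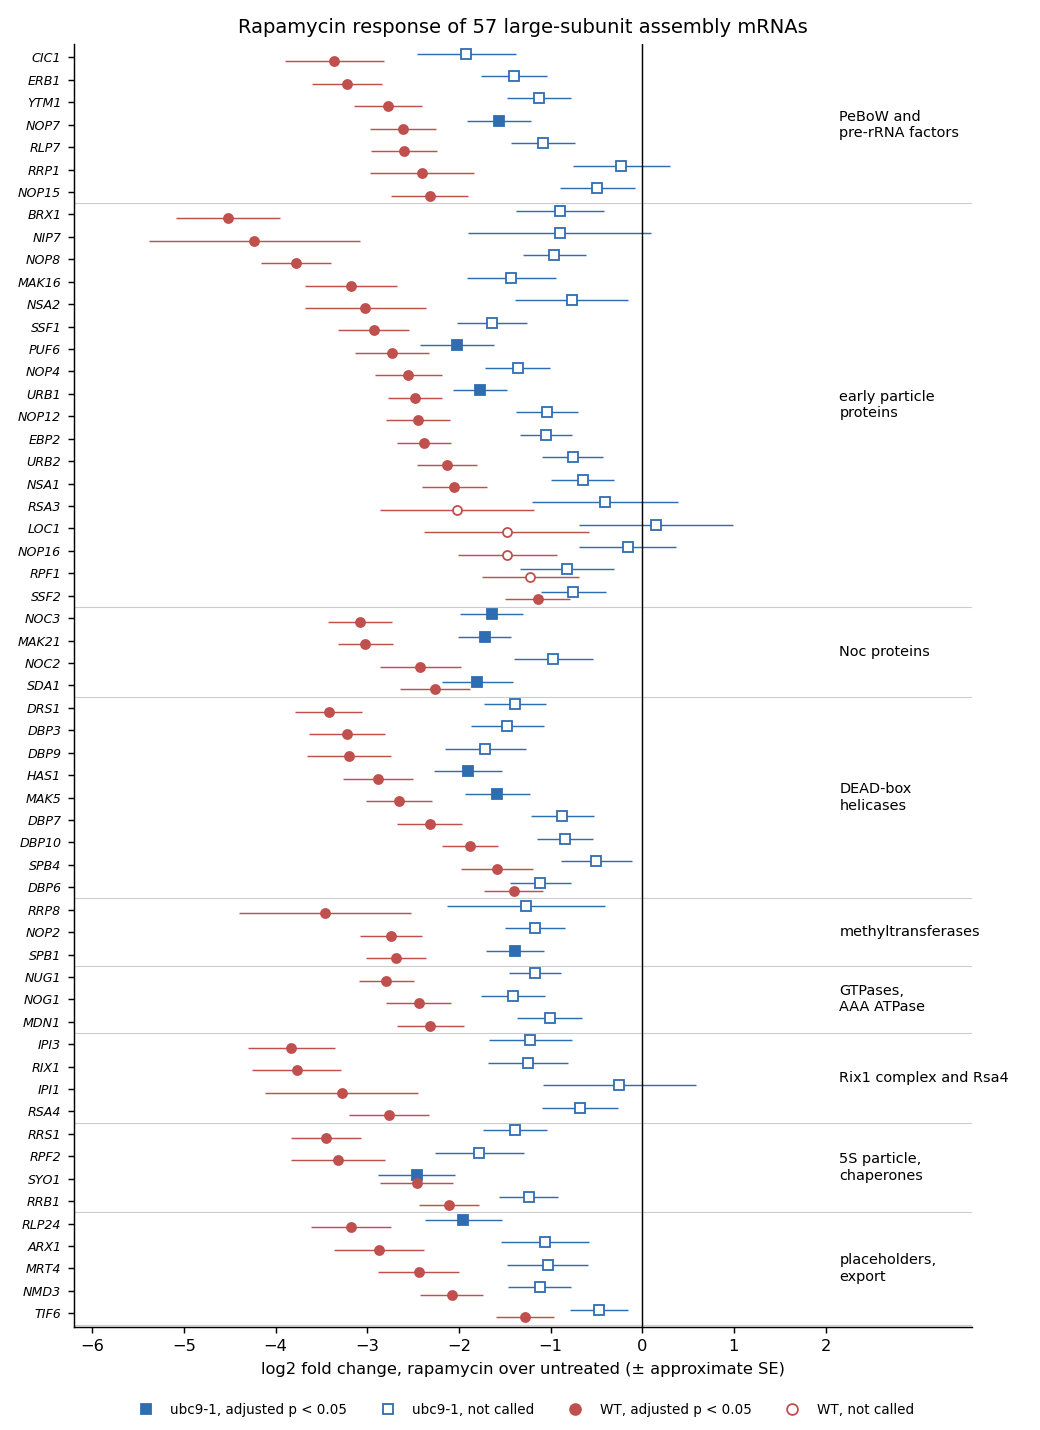
Log2 fold change with rapamycin over untreated for each of the 57 genes, grouped by role, in ubc9-1 (squares) and WT (circles), with bars of 1 approximate SE and filled symbols for an adjusted p under 0.05. The WT circles lie between -4.52 and -1.14 and 53 are filled; the ubc9-1 squares lie between -2.46 and 0.15 and 11 are filled.

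In ubc9-1 cells most of these genes were also lower with rapamycin, with a smaller median change. The test called 11 of the 57 lower, against 0.654% of all features, and none higher, against 0.834%; none was higher at an unadjusted p under 0.05 or by DESeq2. At an unadjusted p under 0.05, 41 were lower, against 6.03% of all features. The median log2 fold change was -1.13 for the 57 genes and -0.01 for all features, a median of 45.6% of the untreated level was left, and 56 of the 57 had a negative log2 fold change. Both rapamycin libraries were below both untreated ones in 50 genes, against 19.7% of all features, and 2 genes had log2 fold changes beyond -2, against 49 in WT. DESeq2 called 22 lower, against 1.29% of all features. The median became -1.88 with factors from snoRNAs, under which that of all features was -0.66. The edgeR count of members became 31 with those factors and 0 with library totals, and was 0 with limma on log2(CPM + 1). Calls over all features moved the same way: 179 features were called lower with factors from snoRNAs, 5 with library totals and 5 with limma, against 40 with TMM. The members' median was -0.96 without untreated ubc9-1 library 2, -1.27 without ubc9-1 rapamycin library 1 and -1.13 without ubc9-1 rapamycin library 2. None of the 11 calls held in every fit with 1 library left out.

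The 11 genes were SYO1, PUF6, RLP24, HAS1, SDA1, URB1, MAK21, NOC3, MAK5, NOP7 and SPB1, and all 11 were also called in WT. SYO1 had the lowest value, with 0.986 and 1.65 CPM in ubc9-1 with rapamycin, against 8.01 and 6.66 CPM in untreated ubc9-1 (log2 fold change -2.46, SE 0.422, adjusted p = 0.00835). PUF6 had 5.16 and 3.62 CPM with rapamycin, against 14.4 and 21 CPM untreated (log2 fold change -2.02, SE 0.403, adjusted p = 0.0212). RLP24 had 4.63 and 1.84 CPM with rapamycin, against 9.35 and 15.4 CPM untreated (log2 fold change -1.95, SE 0.425, adjusted p = 0.0341). The treated libraries were below the untreated ones for each of the 3, and the widest ratio within a pair was that of the treated libraries of RLP24. SYO1 lost its call without ubc9-1 rapamycin library 1 (adjusted p = 0.13) or 2 (0.0613).

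The Noc proteins held 3 of the 11 calls, and their median of -1.68 was the lowest of the classes in ubc9-1. MAK21 had 9.18 and 10.3 CPM with rapamycin, against 28 and 36.3 CPM untreated (log2 fold change -1.72, SE 0.291, adjusted p = 0.00739). NOC3 had 3.34 and 3.49 CPM with rapamycin, against 9.48 and 11.8 CPM untreated (log2 fold change -1.64, adjusted p = 0.0273). SDA1 had 5.61 and 3.29 CPM with rapamycin, against 16.6 and 14.3 CPM untreated (log2 fold change -1.80, adjusted p = 0.031). The treated levels of MAK21 in both strains lay between 7.83 and 10.3 CPM, while its untreated levels were apart, at 28 and 36.3 CPM in ubc9-1 and 61.9 and 74.9 CPM in WT.

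URB1 had 8.35 and 6.06 CPM with rapamycin, against 24.8 and 24.3 CPM untreated (log2 fold change -1.77, SE 0.297, adjusted p = 0.00698). HAS1 had 3.19 and 4.87 CPM with rapamycin, against 11.1 and 18.9 CPM untreated (log2 fold change -1.90, adjusted p = 0.0197). The remaining 3 called genes, MAK5, NOP7 and SPB1, had log2 fold changes of -1.58, -1.56 and -1.39 (adjusted p = 0.0399, 0.0401 and 0.043). None of the 11 overlapped between treated and untreated libraries.

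The genes with the lowest WT values did not pass the test in ubc9-1. BRX1 had 4.4 and 1.58 CPM in ubc9-1 with rapamycin, against 5.07 and 5.97 CPM in untreated ubc9-1 (log2 fold change -0.90, SE 0.479, adjusted p = 0.62). NOP8 had 6.37 and 3.89 CPM with rapamycin, against 9.95 and 9.9 CPM untreated (log2 fold change -0.96, SE 0.345, adjusted p = 0.294). NIP7 had 0.607 and 0.922 CPM with rapamycin, against 1.87 and 1.04 CPM untreated (log2 fold change -0.90, SE 1, adjusted p = 0.897). For these 3 genes the libraries did not overlap, although the 2 treated libraries of BRX1, and those of NIP7, differed from each other by more than the gap to the untreated ones. TIF6 had 15 and 8.69 CPM with rapamycin, against 15.6 and 17.1 CPM untreated (log2 fold change -0.47, adjusted p = 0.753), and its higher treated library was close to the lower untreated one. None of the RIX1 complex members or RSA4 was called by edgeR or DESeq2, with 2 of the 4 at an unadjusted p under 0.05 and a median of -0.95. IPI3 and RIX1 had log2 fold changes of -1.22 and -1.25 (adjusted p = 0.315 and 0.274). Among the GTPases and MDN1 edgeR called none, DESeq2 called 2, and all 3 were at an unadjusted p under 0.05, with a median of -1.17.

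Other genes named for their WT values were below the untreated level in ubc9-1 without passing the test. DRS1, RRS1, RPF2 and CIC1 had log2 fold changes of -1.39, -1.39, -1.78 and -1.92 (adjusted p = 0.063, 0.0768, 0.112 and 0.134). RRB1, NMD3, DBP6 and DBP10 had -1.24, -1.12, -1.11 and -0.84 (adjusted p = 0.0932, 0.177, 0.158 and 0.3). SSF2, NSA1 and SPB4 were nearest to 0, at -0.75, -0.65 and -0.50 (adjusted p = 0.527, 0.611 and 0.799). LOC1 was the only member above 0, at 0.15 (adjusted p = 0.982). The 7 genes whose treated and untreated ubc9-1 libraries overlapped were ARX1, IPI1, LOC1, NOP16, RRP1, RSA3 and SPB4.

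The difference between the responses was tested as the log2 fold change in ubc9-1 minus that in WT. It was positive, which is a smaller fall in ubc9-1, in 56 of the 57 genes, with a median of 1.44 for the 57 genes and -0.05 for all features. The 2 medians were 0.94 and -0.56 with library totals and 0.49 and -0.96 with factors from snoRNAs, and that of the 57 genes was 0.81 by limma on log2(CPM + 1). Of the 57 genes, 5 had a negative difference with library totals and 12 with factors from snoRNAs. NOP8 was the only member that passed the test, at 2.82 (SE 0.502, adjusted p = 0.0445), against 0.131% of all features called in this direction; none passed in the other, against 0.0327%. At an unadjusted p under 0.05, 38 members were positive, against 7.77% of all features, DESeq2 called 8, against 1.68% of all features, and edgeR called 3 without the count filter. The other 5 genes shown above with their sequences had differences of 3.62 for BRX1 (SE 0.733, adjusted p = 0.0691), 3.33 for NIP7 (SE 1.5, 0.338; 2.02 without untreated WT library 2 and 7.32 without WT rapamycin library 2), 1.23 for RLP24 (SE 0.587, 0.37), 0.81 for TIF6 (SE 0.446, 0.451) and 0.00 for SYO1 (0.999). SYO1 was thus the gene with equal estimates in both strains, and TIF6 turned to -0.10 with factors from snoRNAs. The RIX1 complex and RSA4 had the largest median of the classes, at 2.56, with all 4 at an unadjusted p under 0.05, none called by edgeR and 2 called by DESeq2. The NOP8 call was lost without untreated WT library 2 (adjusted p = 0.0509), WT rapamycin library 1 (0.105) or 2 (0.172), untreated ubc9-1 library 1 (0.0736) or 2 (0.0904), or ubc9-1 rapamycin library 1 (0.299). No member was called with DESeq2 size factors, library totals, factors from snoRNAs or factors from open reading frames alone in place of TMM.

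**Figure D4:**
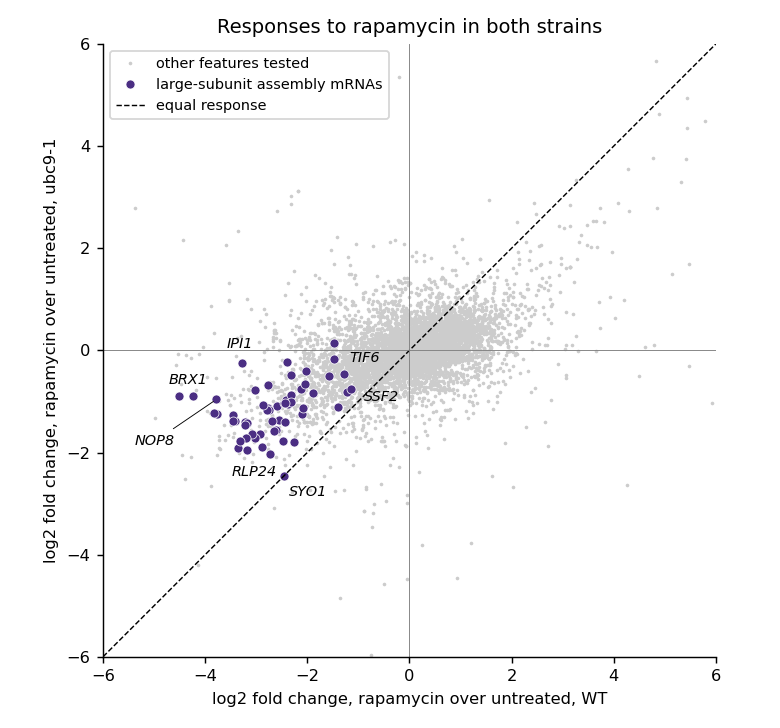
Log2 fold change with rapamycin over untreated in ubc9-1 (vertical) against that in WT (horizontal) for the 57 genes (purple) and the other features tested (grey), with the line of equal response dashed; 31 features lie outside the axes. All purple points but SYO1, which is on the line, lie above it.

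Across the 57 genes the responses in the 2 strains had a Pearson r of 0.393 and a Spearman rho of 0.462, and across the other 6058 features 0.407 and 0.441. These are descriptions over genes that share libraries.

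Before rapamycin the levels of these genes were lower in ubc9-1 than in WT by TMM, with a median log2 fold change of -0.62 against 0.02 for all features, but the median turned to 0.38 with factors from snoRNAs, under which the median of all features was 1.03. Relative to all features the median was between -0.66 and -0.64 under all 5 scalings. A change of scaling moves all features nearly alike, so this difference could hardly move and is no check on the direction. The test called 1 of the 57, MAK21, against 2.4% of all features called lower, and none higher, against 2.29%; none was higher at an unadjusted p under 0.05 or by DESeq2, which called 8 lower, against 5.04% of all features. At an unadjusted p under 0.05, 21 were lower, against 10.6% of all features, and both ubc9-1 libraries were below both WT libraries in 42, against 22.6%. MAK21 had 28 and 36.3 CPM in untreated ubc9-1, against 61.9 and 74.9 CPM in untreated WT (log2 fold change -1.09, SE 0.28, adjusted p = 0.0438). This call was lost without any 1 of the 8 libraries, with adjusted p between 0.0556 without untreated WT library 1 and 0.165 without untreated ubc9-1 library 1.

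The 6 genes shown with their sequences did not pass this test. BRX1 had 5.07 and 5.97 CPM in untreated ubc9-1, against 6.05 and 9.98 CPM in untreated WT (log2 fold change -0.54, adjusted p = 0.532). NOP8 had 9.95 and 9.9 CPM, against 14.8 and 18.3 CPM in WT (-0.74, adjusted p = 0.205). RLP24 had 9.35 and 15.4 CPM, against 18.5 and 19.6 CPM in WT (-0.62, adjusted p = 0.373). The ubc9-1 libraries of these 3 were below the WT ones, and with factors from snoRNAs the log2 fold changes turned to 0.48, 0.26 and 0.50. TIF6, SYO1 and NIP7 had log2 fold changes of -0.72, -0.40 and -0.61 (adjusted p = 0.189, 0.573 and 0.762), which turned to 0.30, 0.57 and 0.21 with those factors.

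With rapamycin in both strains, few of these genes differed between ubc9-1 and WT by the test. The median log2 fold change was 0.70 for the 57 genes and 0.00 for all features, and 53 were positive. The test called 5 members higher, against 1.24% of all features, and none lower, against 0.769%; none was lower at an unadjusted p under 0.05 or by DESeq2, which called 8 higher, against 3.11% of all features. At an unadjusted p under 0.05, 19 were higher, against 9.5% of all features, and both ubc9-1 libraries were above both WT libraries in 31, against 27.2%. The median was 0.35 with library totals, against -0.34 for all features, and 0.26 by limma on log2(CPM + 1), and no member was called by either. With library totals 15 of the 57 were negative, against 4 with TMM.

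The 5 called genes came from 4 of the role classes. BRX1 had 4.4 and 1.58 CPM in ubc9-1 with rapamycin, against 0.344 and 0.347 CPM in WT with rapamycin (log2 fold change 3.08, SE 0.57, adjusted p = 0.0198). NOP8 had 6.37 and 3.89 CPM, against 1.03 and 1.35 CPM in WT (2.09, SE 0.375, adjusted p = 0.0188). RRS1 had 4.32 and 3.56 CPM, against 1.55 and 0.903 CPM in WT (1.69, SE 0.376, adjusted p = 0.0359). The ubc9-1 libraries were well above the WT ones for all 3. DRS1 had 7.36 and 9.42 CPM, against 2.36 and 3.16 CPM in WT (1.60, SE 0.352, adjusted p = 0.0355). NUG1 had 8.35 and 7.24 CPM, against 3.01 and 3.2 CPM in WT (1.33, SE 0.294, adjusted p = 0.0359). All 5 calls were lost without WT rapamycin library 1 (adjusted p = 0.131 to 0.268), WT rapamycin library 2 (0.0931 to 0.231) or ubc9-1 rapamycin library 1 (0.187 to 0.241), and 3 of them, DRS1, NUG1 and RRS1, without ubc9-1 rapamycin library 2 (0.128 to 0.223).

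Of the other 4 genes shown with their sequences, NIP7 had a log2 fold change of 2.72 (SE 1.17, adjusted p = 0.245), RLP24 of 0.61 (SE 0.436, 0.516), TIF6 of 0.09 (SE 0.317, 0.921) and SYO1 of -0.40 (SE 0.428, 0.693). The NIP7 value was 1.84 without WT rapamycin library 1 and 6.72 without WT rapamycin library 2. RLP24 had 4.63 and 1.84 CPM in ubc9-1 with rapamycin, against 2.41 and 1.81 CPM in WT with rapamycin, and TIF6 had 15 and 8.69 CPM, against 11.3 and 10.9 CPM, so the libraries of the strains overlapped in both genes. TIF6 turned to -0.27 with library totals, and to -0.32 without ubc9-1 rapamycin library 1, as RLP24 did to -0.16. SYO1, one of the 4 members with a negative value, lies 201 bases from UBC9, at chrIV:338272-340134 beside chrIV:337487-338070, and overlaps another annotated feature. UBC9 had a log2 fold change of 3.27 untreated (adjusted p = 0.0198) and 2.30 with rapamycin (0.0664) for ubc9-1 against WT. That of SYO1 was -0.40 in both. PEX19 (YDL065C), the other neighbour of UBC9 that was checked, had 2.40 untreated (adjusted p = 0.00227) and 2.82 with rapamycin (0.00167). The cause of these differences was not tested.

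**Figure D5:**
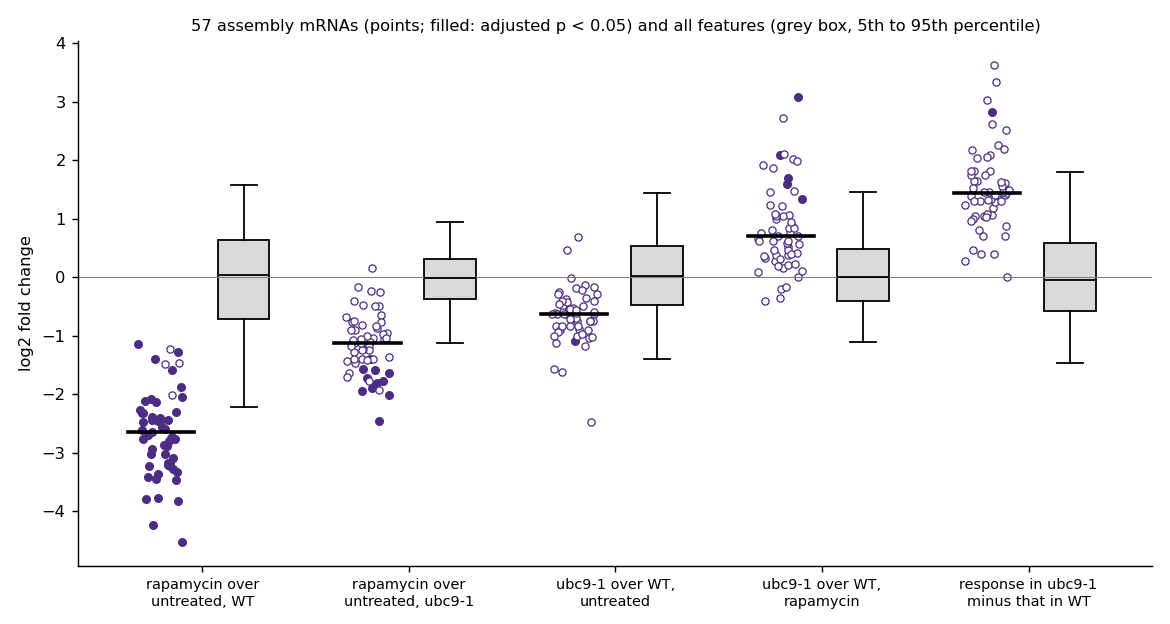
Log2 fold changes of the 57 genes (points, filled for an adjusted p under 0.05, bar at the median) in the 5 comparisons, beside a grey box of all features with its quartiles and whiskers at percentiles 5 and 95. The medians of the 57 genes are -2.65, -1.13, -0.62, 0.70 and 1.44 and those of all features 0.04 to -0.05; with factors from snoRNAs the median for ubc9-1 over WT untreated turns to 0.38.

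Genes with related roles gave a measure of how far these values were shared. Of 35 other genes of large-subunit assembly and export, 34 were tested. With rapamycin, 20 were called lower in WT and 32 were negative (median log2 fold change -1.57). In ubc9-1, 3 were called lower and 28 were negative (median -0.76). Of 69 genes of small-subunit assembly, 67 were called lower in WT and 69 were negative (median -2.50). In ubc9-1 these counts were 12 and 68 (median -1.14). Of 81 large-subunit ribosomal protein genes, 34 were called lower in WT and 80 were negative (median -0.98). In ubc9-1 these counts were 4 and 81 (median -0.52). Of the 6115 features tested, 11.6% were called lower in WT and 0.654% in ubc9-1, and 2937 and 3107 were negative. The difference between the responses had a median of 0.95 for the other large-subunit assembly genes, 1.33 for the small-subunit assembly genes and 0.36 for the ribosomal protein genes, beside 1.44 for the 57 genes. The small-subunit assembly genes thus had medians close to those of the 57 genes in both strains, and no test was made between the lists.

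The promoter elements were set beside the response of other genes, meaning all genes outside the 57 with a promoter searched. The small-subunit assembly genes and the other large-subunit assembly genes were not taken out of these. How many of them hold both elements was not counted, so the values below do not describe genes outside ribosome assembly. Of 214 other genes with both GATGAG and AAAATTTT in the window, 126 (58.9%) were called lower in WT with rapamycin (median log2 fold change -1.73). The share called lower was 14.3% of 865 genes with GATGAG alone (median -0.01) and 19.2% of 255 with AAAATTTT alone (median -0.28). It was 4.6% of 4218 genes with neither (median 0.20). All of the 57 genes themselves were lower. Called lower were 40 of the 42 with both, 9 of the 11 with GATGAG alone and all 4 with AAAATTTT alone. Their medians were -2.76, -2.40 and -2.99. In ubc9-1, 18 of the 214 other genes with both (8.41%) were called lower, with a median of -0.77. The difference between the responses had a median of 0.88 in those 214 genes, -0.04 with GATGAG alone, 0.14 with AAAATTTT alone and -0.18 with neither. These are counts over genes that share libraries, with no test, and they say nothing on what binds the elements.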

How the data were processed

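The counts deposited by the authors are unscaled whole numbers of read pairs per annotated gene. Per the file headers, featureCounts took every alignment of a read with several hits and did not use strand. The deposited CPM are those counts over the assigned total of the library, differed from values recomputed here by at most 4.4e-10, and served an alternative only. TopHat2 2.0.13, featureCounts 1.4.6-p3 and the build R64 are named in the submitters' processing notes, without roles. No sample column was left out.

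Differences were tested in R 4.3.3 with the quasi-likelihood F test of edgeR 4.0.16, fitted to all 8 libraries with 1 coefficient per group, TMM scaling and filterByExpr (minimum count 10); p-values were adjusted by Benjamini-Hochberg over 6115 features in each of 5 comparisons and called under 0.05. Standard errors (SE) are the absolute log2 fold change over the square root of F, and approximate. Dispersion was 0.093 in common, on 4 residual and 9.8 prior degrees of freedom. The script was tested on simulated data. Library totals of 14304014 to 21061460 set the precision. The fits used a count of 0 as it stands. The bound of up to 3 counts given beside a 0 is a reading of that count alone and covers counting error only.

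The members and lists were chosen with earlier results of these data known, so lists are described by counts and medians without a test. Named in each comparison were BRX1, NIP7, NOP8, RLP24, SYO1 and TIF6, and, among members called with a mean of at least 50 counts, the 8 lowest and 8 highest; both rapamycin comparisons name the union, and other members were chosen after their values were seen. All 57 members had the same coordinates in the RefSeq annotation of R64, from which promoters were read; NOP4, HAS1 and SYO1 overlap another feature. The alternatives were 4 other scalings, no filter, a robust prior, DESeq2 1.42.0, limma 3.58.1 on log2(CPM + 1) and log2(CPM + 0.1), only the libraries compared, the replicate number as a block, and leaving out each library.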

Additional observations from a re-analysis of the deposited data

Results flagged for a closer look

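NOP8 was singled out because its response to rapamycin differed between the strains by a test of the difference itself. The log2 fold change in ubc9-1 minus that in WT was 2.82 (SE 0.502, adjusted p = 0.0445 by the edgeR quasi-likelihood test over all features). NOP8 had 6.37 and 3.89 CPM in ubc9-1 with rapamycin, against 9.95 and 9.9 CPM in untreated ubc9-1, and 1.03 and 1.35 CPM in WT with rapamycin, against 14.8 and 18.3 CPM in untreated WT. The treated libraries of the strains did not overlap. The call did not hold under 4 other scalings or without 6 of the 8 libraries, among which ubc9-1 rapamycin library 1 gave the lowest value, 2.44 (adjusted p = 0.299).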

How the results depend on the processing

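Across 19 alternative settings the members called in WT with rapamycin were lower in every case and numbered 43 to 54; the number called in the other comparisons depended on the setting and on single libraries. In the counts that follow, members called and all features called are given in the order WT with rapamycin, ubc9-1 with rapamycin, ubc9-1 over WT untreated, ubc9-1 over WT with rapamycin, and the difference between responses, where TMM with edgeR gave 53 and 1248, 11 and 91, 1 and 287, 5 and 123, and 1 and 10. Only the values that moved are given, and the cause was not tested.

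With library totals, members called were 0 in the other 4 comparisons, all features called were 42, 124, 27 and 5 there, and the members' medians moved to -2.24 in WT, 0.35 between treated strains and 0.94 for the difference between responses. With factors from snoRNAs, 723 features were called in WT, 31 members and 208 features in ubc9-1, 0 and 1532 between untreated strains, 2 and 55 between treated strains, and 0 and 23 for the difference; the medians moved to -2.42, -1.88, 0.38, where the direction turned, and 0.49 for the difference. Under these factors the median of all features was 0.28 in WT, -0.66 in ubc9-1, 1.03 between untreated strains and -0.96 for the difference, and relative to that the members' medians were -2.71, -1.22, -0.65 and 1.45, beside -2.69, -1.12, -0.64 and 1.49 with TMM. Since a scaling moves all features nearly alike, these relative values could hardly differ and do not test the scaling. DESeq2 size factors gave 2 members between untreated strains and 0 members and 5 features for the difference, and open reading frames alone gave 0 and 5 for the difference.

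Without the count filter, 20 members were called in ubc9-1, 4 and 465 features between untreated strains, 8 and 257 between treated strains, and 3 and 52 for the difference. The DESeq2 Wald test gave 22 and 150, 8 and 583, 8 and 343, and 8 and 126 in the same order. With limma on log2(CPM + 1), no member was called outside WT, with 41, 148, 43 and 5 features, and the medians were -1.87 in WT, 0.26 between treated strains and 0.81 for the difference; with log2(CPM + 0.1) these were 34, 140, 32 and 4 features and -2.10, 0.32 and 0.90. Fitted to only the 4 libraries compared, 0 members and 86 features were called between untreated strains and 278 features between treated strains.

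Replicate numbers paired the libraries by number alone, and the deviations of same-numbered libraries from their group means had correlations of 0.086 to 0.181. With the replicate number as a block, 1887 features were called in WT, 29 members and 246 features in ubc9-1, 11 and 1012 between untreated strains, 13 and 654 between treated strains, and 19 and 395 for the difference.

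Leaving out each library, members called ranged over 45 to 54 in WT, 0 to 13 in ubc9-1, 0 to 2 between untreated strains, 0 to 8 between treated strains and 0 to 2 for the difference. All features called ranged over 566 to 1383, 22 to 111, 91 to 226, 2 to 226 and 4 to 31, and the members' medians over -2.88 to -2.45, -1.41 to -0.96, -0.84 to -0.47, 0.60 to 0.83 and 1.26 to 1.60. The direction of single genes was checked only for those named in a comparison by the rule above. Of these, the genes whose direction turned, none of them past the threshold, were SPB4 in ubc9-1 (-1.13 to 0.01 over the libraries left out), NIP7 between untreated strains (-1.25 to 0.70), RLP24 and TIF6 between treated strains (-0.16 to 1.15 and -0.32 to 0.45) and SYO1 for the difference (-0.44 to 0.34). TIF6 between treated strains was -0.27 with library totals, -0.27 with limma on log2(CPM + 1) and -0.29 on log2(CPM + 0.1), and SYO1 for the difference was 0.06 with DESeq2 size factors and 0.05 with DESeq2. With factors from snoRNAs, BRX1, NIP7, NOP8, RLP24, SYO1 and TIF6 between untreated strains turned to 0.48, 0.21, 0.26, 0.50, 0.57 and 0.30, and TIF6 for the difference to -0.10. Over all 57 members, 55 were negative between untreated strains with TMM and 7 with factors from snoRNAs. For the difference, 1 was negative with TMM, 12 with factors from snoRNAs and 5 with library totals. Between treated strains, 4 were negative with TMM and 15 with library totals.

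As a share of open reading frame counts, the members held means of 0.0855% in treated ubc9-1, 0.212% in untreated ubc9-1, 0.0754% in treated WT and 0.545% in untreated WT, and single libraries of the treated strains overlapped. Depth limits the thinly counted members: 7 of the 57 had a mean under 50 counts.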
